A study of Mus musculus with 12 samples.

Results

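The D-type cyclins, the kinases they activate, the retinoblastoma protein and the inhibitors of those kinases were followed by RNA sequencing in mouse ZFTA-RELA ependymomas and in normal cortex. The set held 10 genes of the 24421 in the deposited tables, chosen by symbol: Ccnd1, Ccnd2, Ccnd3, Cdk4, Cdk6, Rb1, Cdkn1b, Cdkn2a, Cdkn2b and Cdkn2c. All 10 were found in both tables. The study had 12 libraries of bulk tissue in 4 groups of 3: ZFTA-RELA tumours that overexpressed human ETV5 (ETV5 tumours), ZFTA-RELA tumours that overexpressed human NPY (NPY tumours), ZFTA-RELA tumours with no further gene added (control tumours), and cortex of wild-type mice without tumour. ZFTA-RELA is a fusion gene found in a class of childhood ependymoma, and all 3 tumour groups carried it. ETV5 is a transcription factor of the ETS family, and NPY encodes the precursor of neuropeptide Y. The sources used here do not give how the fusion or the added genes were delivered, what promoter drove them, or the age of the mice, and do not say whether the replicates were separate animals, and each p-value below is set against the spread between samples, which may be technical.

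In a resting cell the retinoblastoma protein, the product of Rb1, holds E2F transcription factors inactive. D-type cyclins bind CDK4 or CDK6, and the pair phosphorylates the retinoblastoma protein, which frees E2F and commits the cell to DNA replication. INK4 inhibitors (p16 from Cdkn2a, p15 from Cdkn2b, p18 from Cdkn2c, and a further one from Cdkn2d, which is not among the 10 genes) bind CDK4 and CDK6 themselves, whereas p27, the product of Cdkn1b, binds cyclin and kinase complexes and is kept high in cells that have left the cycle, such as neurons. Cdkn2a also encodes p19ARF, which acts through p53, from another first exon.

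Depth was 6691146 to 11291057 reads in ETV5 tumours, 8214523 to 10481943 in NPY tumours, 6266613 to 9443466 in control tumours and 5962376 to 7444467 in cortex. Mouse Etv5 stood at 401 to 474 CPM (reads scaled to the library total) in ETV5 tumours, 251 to 346 in NPY tumours, 264 to 322 in control tumours and 106 to 144 in cortex. Mouse Npy stood at 1.44 to 18.5 CPM in ETV5 tumours, 2.19 to 15.9 in NPY tumours and 21.5 to 46.1 in control tumours. In cortex it stood at 78.4 to 129 CPM, so the mouse gene was not raised in the libraries labelled NPY. Whether reads of the added human genes were counted under the mouse genes was not tested. Neither mouse level is therefore taken as a measure of the added human gene. Rela and 2700081O15Rik, the mouse Zfta locus, averaged 4.63 and 5.44 times their cortex CPM in control tumours. The cortex label matched its defining genes: the 10 excitatory neuron markers summed to 78 to 570 CPM in ETV5 tumours, 78 to 94.4 in NPY tumours, 418 to 846 in control tumours and 5872 to 7319 in cortex.

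The promoters of the Cdkn2a and Cdkn2b locus are shown first, because the largest rise described here fell on a gene with 2 starts. That of Cdk4 is shown because Cdk4 had the smallest spread of the 10 genes within the tumour groups. They come from RefSeq on build GRCm38.p6, run 5′ to 3′ on the gene's strand and end at the annotated start, less any bases that GENCODE M21 puts in an exon. RefSeq windows matched 7 of the 10 genes, with 10 windows in all. Capitals mark letters of a searched motif. All lie outside exons.
Cdkn2a, p19ARF start, chr4:89294654-89294869, minus strand: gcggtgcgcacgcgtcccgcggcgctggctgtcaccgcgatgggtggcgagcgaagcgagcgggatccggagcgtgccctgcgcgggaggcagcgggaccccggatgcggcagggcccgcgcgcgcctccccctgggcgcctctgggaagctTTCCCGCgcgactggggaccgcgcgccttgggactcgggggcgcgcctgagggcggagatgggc
Cdkn2a, p16 start, chr4:89282193-89282442, minus strand: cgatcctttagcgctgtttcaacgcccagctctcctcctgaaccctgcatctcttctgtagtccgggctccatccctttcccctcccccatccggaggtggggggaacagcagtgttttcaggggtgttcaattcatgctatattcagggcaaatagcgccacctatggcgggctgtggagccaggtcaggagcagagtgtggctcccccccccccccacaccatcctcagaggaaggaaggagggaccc
Cdkn2b, chr4:89311040-89311282, minus strand: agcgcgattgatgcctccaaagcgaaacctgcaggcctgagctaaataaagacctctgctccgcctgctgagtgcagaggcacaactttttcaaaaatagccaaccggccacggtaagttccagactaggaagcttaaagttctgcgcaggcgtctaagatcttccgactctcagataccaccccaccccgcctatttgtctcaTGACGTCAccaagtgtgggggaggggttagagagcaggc
Cdk4, chr10:127063285-127063533, plus strand: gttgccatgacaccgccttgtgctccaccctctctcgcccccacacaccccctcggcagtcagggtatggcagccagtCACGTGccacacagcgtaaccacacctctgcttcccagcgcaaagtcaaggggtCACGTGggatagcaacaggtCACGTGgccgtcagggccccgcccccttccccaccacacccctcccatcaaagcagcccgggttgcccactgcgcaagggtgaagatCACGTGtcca

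The 250 bases before each start were searched on both strands for 6 motifs, and no 2 matches overlapped in the windows of these genes. The E2F letters (TTGGCGC or TTCCCGC or TTGCCGC or TTCGCGC) occur in 7.89% of the 32851 mouse windows, and here they occurred in the p19ARF window of Cdkn2a, 98 to 92 bases before the start, and in 1 of the 2 Cdkn2c windows, 25 to 19 bases before it. The CRE letters TGACGTCA, found in 1.55% of all windows, occurred in Cdkn2b. The E-box letters CACGTG, found in 6.02% of all windows, occurred once in Cdk6 and 4 times in Cdk4. At least 4 matches occur in 7 of all 32851 windows (0.0213%), but the E-box was added after the Cdk4 window had been read. The ETS letters CCGGAAG, found in 6.91% of all windows, occurred in 1 of the 2 Ccnd3 windows. The NF-kB letters (GGG, any 2 bases, then TTTCC), found in 1.41%, and the AP-1 letters TGANTCA, found in 6.75%, occurred in none of the 10 windows. A match is a description of letters, not of binding.

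Against cortex, the tumours carried far more transcript of Ccnd1, Ccnd3, Cdk4 and Cdk6, which drive the cycle, and of Cdkn2a, Cdkn2b and Cdkn2c, INK4 inhibitors that oppose it. In control tumours 8 of the 10 genes rose and none fell (limma on log2 of the deposited value plus 1, adjusted p under 0.05); 72.0% of the 14621 genes tested were called in either direction, 35.7% higher. In ETV5 tumours 7 of 10 rose and none fell, beside 63.8% of 14493 genes called, 31.8% higher. In NPY tumours 7 rose and 1 fell, beside 71.0% of 14613 called, 35.1% higher and 35.8% lower. Cdk6, Cdkn2a and Cdkn2b passed the filter on low values only through the tumours and so had to differ. Of the other 7 genes, 5 rose in control tumours, 4 in ETV5 tumours and 4 in NPY tumours. The median log2 fold change over the 10 genes was 3.43 in ETV5 tumours, 3.24 in NPY tumours and 3.30 in control tumours, against 0.01, -0.01 and 0.00 over all genes tested. These medians include Cdk6, Cdkn2a and Cdkn2b and are given as a description. The 3 contrasts share the cortex libraries.

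In all 9 tumour libraries Ccnd1, Ccnd3, Cdk4, Cdk6, Cdkn2a, Cdkn2b and Cdkn2c lay above all 3 cortex libraries. That holds for 35.7% of 15228 genes, and for Ccnd2, Rb1 and Cdkn1b the ranges met. Cdk6, Cdkn2a and Cdkn2b passed the filter only through the tumours and had to differ, so their place above cortex is a description. In bulk tissue, more cells of a type and more RNA per cell cannot be told apart. Other cell types moved with these contrasts. Microglia and macrophage markers, 12 genes, summed to 1563 to 3142 CPM in ETV5 tumours, 2615 to 5080 in NPY tumours, 2972 to 6198 in control tumours and 459 to 511 in cortex. Endothelial markers, 8 genes, summed to 236 to 365 CPM, 154 to 460.4 and 346 to 473 in the 3 tumour groups in that order, and to 83.7 to 126 in cortex. Oligodendrocyte markers, 9 genes, ran the other way, at 1025 to 2025 CPM in ETV5 tumours, 607 to 1687 in NPY tumours, 1920 to 3949 in control tumours and 14396 to 18143 in cortex. Interneuron markers, 6 genes, summed to 7.48 to 115 CPM in ETV5 tumours, 4.38 to 18.4 in NPY tumours, 44.4 to 135 in control tumours and 799 to 1136 in cortex. T cell markers, 4 genes, reached at most 9.91 CPM in any library, and Cd3e, Cd3g and Cd2 had 0 reads in cortex. The part of these cells in the results was not tested.

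**Figure D1:**
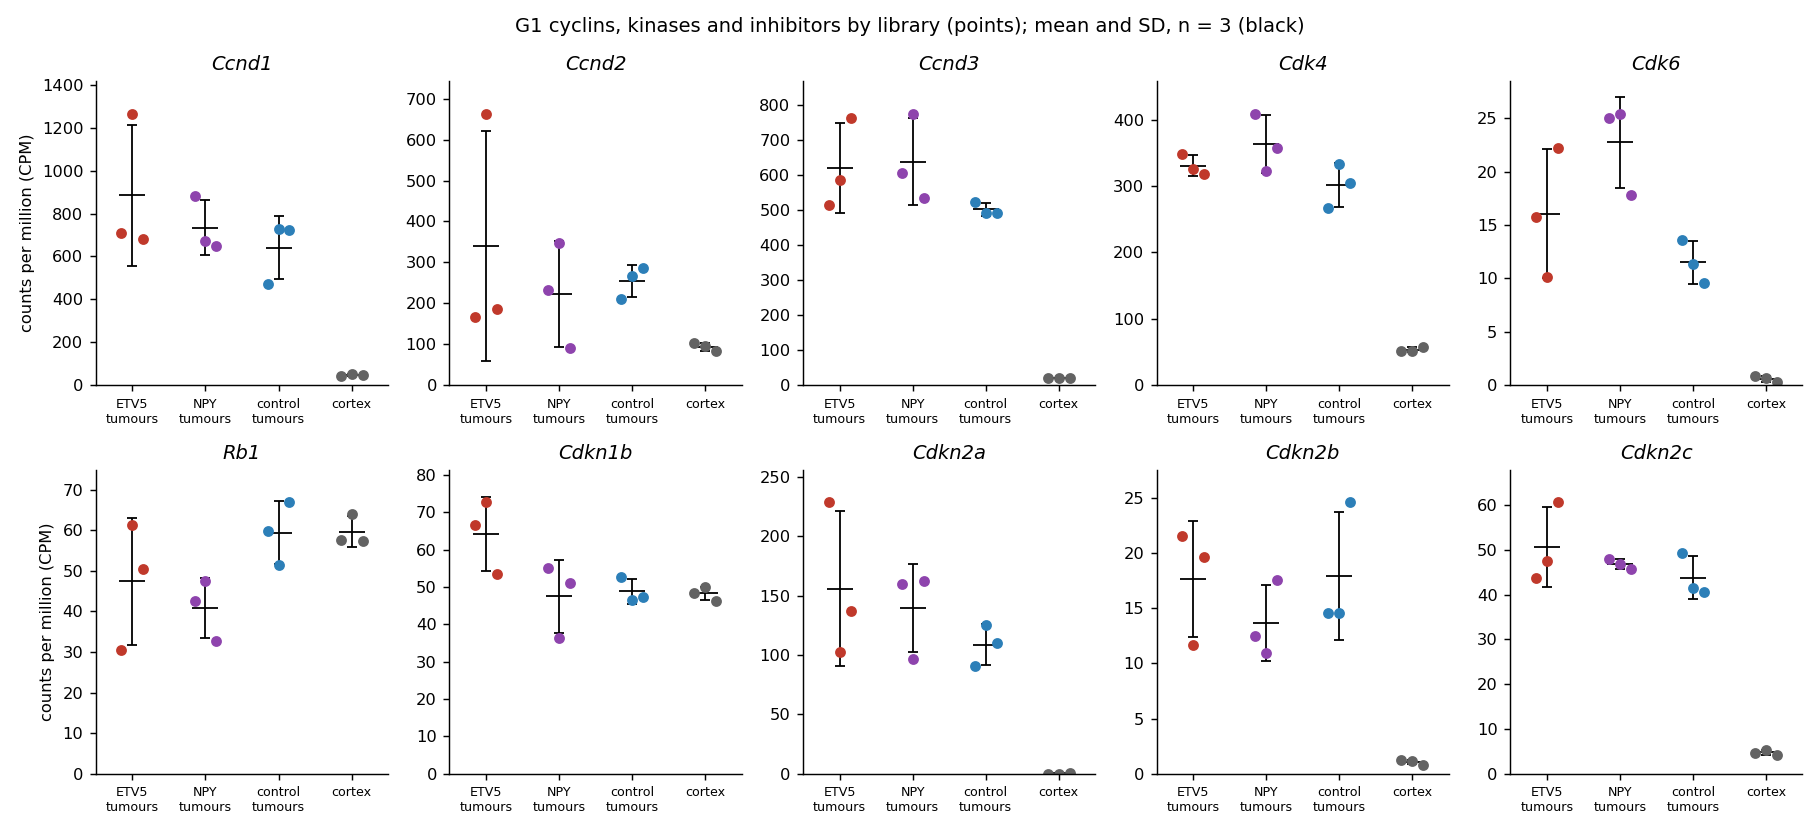
CPM of each of the 10 genes (y axes, linear, from 0) in ETV5 tumours, NPY tumours, control tumours and cortex; points are libraries in replicate order, black bars the mean and SD (n = 3). Every tumour point lies above every cortex point except in the panels of Rb1, Cdkn1b and Ccnd2. Cdk6, Cdkn2a and Cdkn2b passed the filter only through the tumours and had to differ. Ccnd2 runs from 89.9 to 664 CPM among tumours.

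Of the D-type cyclins, Ccnd1 was the most abundant in tumours. It had 708, 1267 and 680.3 CPM in ETV5 tumours, 883, 671 and 649 CPM in NPY tumours and 470.3, 727 and 723 CPM in control tumours, against 41.0, 49.8 and 47.9 CPM in cortex. The lowest tumour library thus stood far above the highest cortex library, and the 3 tumour groups overlapped. Ccnd1 rose 16.2-fold in ETV5 tumours (log2 4.02, SE 0.26, limma adjusted p = 7.20e-05), 14.1-fold in NPY tumours (log2 3.81, SE 0.16, adjusted p = 1.62e-06) and 12.1-fold in control tumours (log2 3.59, SE 0.19, adjusted p = 1.35e-06). The gene lies on chromosome 7, 144929931 to 144939925, minus strand, in the GENCODE M21 annotation of the same mouse build.

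Ccnd3, the D cyclin best known from lymphocytes, had the largest fold of the 3. Its levels were 514, 585 and 763 CPM in ETV5 tumours, 607, 776 and 533 CPM in NPY tumours and 523, 492 and 492 CPM in control tumours, against 20.01, 21.5 and 20.2 CPM in cortex. Ccnd3 rose 26.1-fold in ETV5 tumours (log2 4.70, SE 0.19, limma adjusted p = 3.08e-05), 27.3-fold in NPY tumours (log2 4.77, SE 0.17, adjusted p = 1.04e-06) and 21.6-fold in control tumours (log2 4.43, SE 0.11, adjusted p = 1.25e-07). Within the cortex and control groups the libraries were close to each other, and the spread was wider in the other 2 groups. It lies on chromosome 17, 47505051 to 47599691, plus strand.

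Ccnd2, a D cyclin of neural progenitors, was the least regular member. It had 167, 664 and 187 CPM in ETV5 tumours, 231, 347 and 89.9 CPM in NPY tumours and 211, 266 and 286 CPM in control tumours, against 102, 95.3 and 83.7 CPM in cortex. All ETV5 and control tumours lay above cortex, as 41.8% and 43.8% of genes did, but NPY replicate 3 lay within the cortex range. Ccnd2 rose 2.40-fold in control tumours (log2 1.26, SE 0.14, limma adjusted p = 6.52e-05). The log2 difference from cortex was 1.37 in ETV5 tumours (SE 0.51, 95% interval 0.15 to 2.60, limma adjusted p = 0.0517) and 0.89 in NPY tumours (SE 0.46, 95% interval -0.20 to 1.97, limma adjusted p = 0.122), neither of which passed. The ETV5 call depended on the method. With all 6 libraries Ccnd2 in ETV5 tumours was called with total-read scaling (limma adjusted p = 0.0334), with edgeR (0.0356), with DESeq2 (0.00536) and with a replicate block (0.0399). Leaving out ETV5 replicate 2 gave a difference of 0.75 that passed (limma adjusted p = 0.00662), and leaving out ETV5 replicate 1 gave 1.75 (limma adjusted p = 0.0185). In NPY tumours Ccnd2 was called by DESeq2 with all libraries (1.11, adjusted p = 0.0212) and without NPY replicate 3 (1.45, limma adjusted p = 0.00139). Over the 13 alternatives the adjusted p ran from 0.00536 to 0.133 for ETV5 tumours and from 0.00139 to 0.293 for NPY tumours. The spread of log2 Ccnd2 within the tumour groups (SD 0.87) was above that of 92.0% of 15228 genes, whose median was 0.33. ETV5 replicate 2, the highest, also had the highest excitatory neuron sum of its group (570 CPM, against 77.6 and 223); the part of neuronal material in its Ccnd2 level was not tested. Ccnd2 lies on chromosome 6, 127125162 to 127152193, minus strand.

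These changes gave the D cyclins another make-up in tumours. On a scale of CPM per kilobase of exon, the 3 genes together averaged 295 ± 97.4 in ETV5 tumours, 252 ± 38.9 in NPY tumours, 220.2 ± 33.2 in control tumours and 22.1 ± 0.934 in cortex (SD, n = 3 each). Ccnd2 made up 7.84 to 17.4% of that sum in ETV5 tumours, 4.59 to 13.8% in NPY tumours, 11.9 to 12.7% in control tumours and 41.6 to 49.6% in cortex. Ccnd3 made up 16.4 to 34.6%, 24.6 to 33.0% and 23.4 to 32.8% in the ETV5, NPY and control tumours, and 10.5 to 10.8% in cortex. Ccnd1 took 57.5 to 66.3%, 53.2 to 66.7% and 54.9 to 64.7% in the same tumour groups, and 39.9 to 47.6% in cortex. In no share did a tumour library reach into the cortex range. These shares do not depend on how a library is scaled, and they carry no test.

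**Figure D2:**
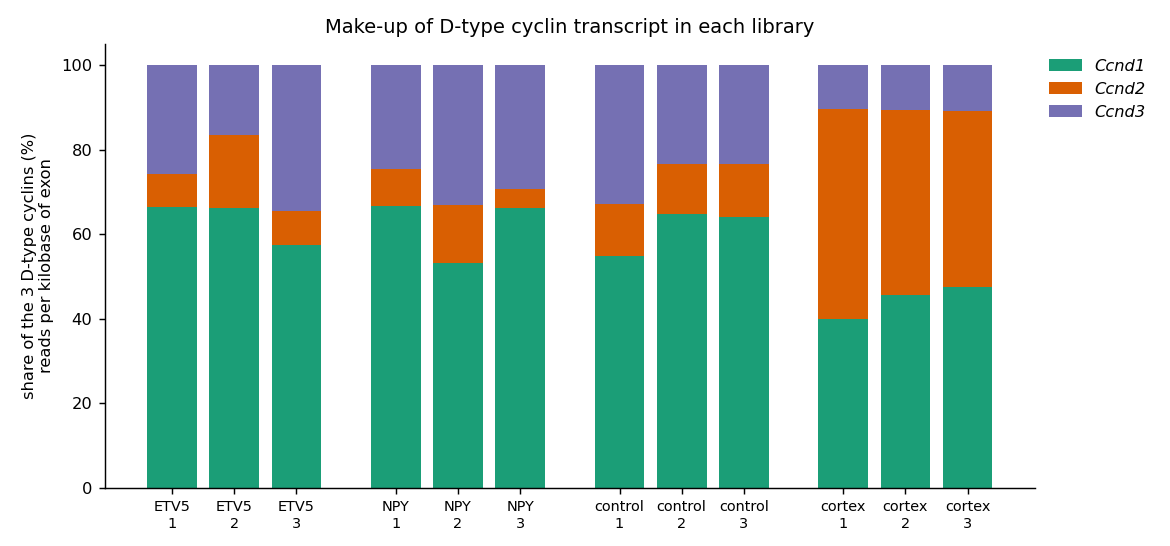
Share (%) of Ccnd1, Ccnd2 and Ccnd3 in their summed reads per kilobase of exon; each bar is 1 library, grouped as ETV5 tumours, NPY tumours, control tumours and cortex. Ccnd2 takes 41.6 to 49.6% of cortex bars and at most 17.4% of tumour bars.

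Cdk4, the more abundant of the kinases that D cyclins activate, had 349, 326 and 319 CPM in ETV5 tumours, 409, 322 and 357 CPM in NPY tumours and 267, 334 and 304 CPM in control tumours, against 52.0, 50.8 and 57.9 CPM in cortex. It was even within the tumour groups: its within-group SD on the log2 scale was 0.14, at the 8.37th percentile of 15228 genes and the lowest of the 10. Cdk4 rose 5.44-fold in ETV5 tumours (log2 2.44, SE 0.11, limma adjusted p = 3.65e-05), 6.02-fold in NPY tumours (log2 2.59, SE 0.12, adjusted p = 2.46e-06) and 4.98-fold in control tumours (log2 2.32, SE 0.12, adjusted p = 1.47e-06). Tspan31, which overlaps the 3′ end of Cdk4, averaged 108, 100.04 and 125 CPM in the ETV5, NPY and control tumours and 67.7 CPM in cortex. The strand setting of the counting is not given in the sources used here, so reads in the overlap cannot be told apart.

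Cdk6, the second D cyclin kinase, was scarce everywhere. It had 15.7, 10.2 and 22.2 CPM in ETV5 tumours, 25.0, 25.4 and 17.8 CPM in NPY tumours and 13.6, 11.3 and 9.57 CPM in control tumours, against 0.81, 0.67 and 0.28 CPM in cortex, where the 3 libraries held 12 reads in all. Cdk6 passed the filter only through the tumours and had to differ, so its folds over cortex are given as a description. They were 20.5 in ETV5 tumours (log2 4.35, SE 0.48), 30.7 in NPY tumours (log2 4.94, SE 0.41) and 15.4 in control tumours (log2 3.94, SE 0.40), and rest on those few cortex reads. Per kilobase of exon, Cdk6 was 0.719 to 1.59% of Cdk4 plus Cdk6 in ETV5 tumours, 1.15 to 1.80% in NPY tumours, 0.725 to 1.16% in control tumours and 0.112 to 0.359% in cortex. Cdk6 ranked last of the 10 genes per kilobase in all 4 groups. That rank depends on its annotated exon length of 13989 bases, the longest of the 10. Cdk4 lies on chromosome 10, 127063534 to 127067920, and Cdk6 on chromosome 5, 3341485 to 3531008, both on the plus strand.

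Rb1, the target of these kinases, did not share the rise. It had 30.4, 61.3 and 50.5 CPM in ETV5 tumours, 42.5, 47.4 and 32.7 CPM in NPY tumours and 59.8, 51.5 and 66.9 CPM in control tumours, against 57.5, 64.1 and 57.4 CPM in cortex. The 3 NPY tumours lay below all cortex libraries, as 35.2% of genes did, and the other 2 tumour groups met the cortex range. Rb1 fell by 0.72 on the log2 scale in NPY tumours (SE 0.18, 95% interval -1.15 to -0.30, limma adjusted p = 0.00845), and stayed called under all 13 alternatives (adjusted p 0.00127 to 0.0402). The log2 difference was -0.57 in ETV5 tumours (SE 0.28, 95% interval -1.23 to 0.09, limma adjusted p = 0.112) and -0.18 in control tumours (SE 0.13, 95% interval -0.47 to 0.10, limma adjusted p = 0.216). Without ETV5 replicate 2 the ETV5 difference was -0.78 and passed (limma adjusted p = 0.0421; range over the 13 alternatives 0.0421 to 0.258). Lpar6 lies within Rb1 (chromosome 14, 73183673 to 73325822, minus strand) and averaged 17.7 CPM in ETV5 tumours, 17.3 in NPY tumours, 32.4 in control tumours and 5.34 in cortex; its part in the Rb1 counts was not tested.

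Cdkn1b, the gene of p27, did not pass the test against cortex in any tumour group. It had 66.7, 72.6 and 53.3 CPM in ETV5 tumours, 55.0, 36.4 and 51.0 CPM in NPY tumours and 52.7, 46.5 and 47.2 CPM in control tumours, against 48.5, 49.98 and 46.4 CPM in cortex. The log2 difference from cortex was 0.22 in ETV5 tumours (95% interval -0.13 to 0.56, limma adjusted p = 0.233), -0.21 in NPY tumours (-0.60 to 0.19, limma adjusted p = 0.293) and -0.16 in control tumours (-0.43 to 0.11, limma adjusted p = 0.253). Those intervals hold no change as large as a log2 difference of 1. Scaling to total reads, which moves the median of all genes by 0.18 in ETV5 tumours, 0.16 in NPY tumours and 0.17 in control tumours, turned the control value to 0.01. The gene lies on chromosome 6, 134920401 to 134925513, plus strand.

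Among the inhibitors that bind CDK4 and CDK6, Cdkn2a had the largest change of all 10 genes. It had 229, 102 and 137 CPM in ETV5 tumours, 160.2, 96.4 and 162 CPM in NPY tumours and 91.1, 125 and 110.1 CPM in control tumours, against 0.13, 0.17 and 0.70 CPM in cortex. The cortex values stand for 1, 1 and 5 reads, so its level there is near the limit of detection at this depth, whereas each tumour library held at least 684 reads. Cdkn2a passed the filter only through the tumours and had to differ, so its differences from cortex are given as a description. They were a log2 of 8.38 in ETV5 tumours (SE 0.53), 8.31 in NPY tumours (SE 0.48) and 7.94 in control tumours (SE 0.44). By absolute log2 fold change that was rank 17 of 14493 genes in ETV5 tumours, 53 of 14613 in NPY tumours and 32 of 14621 in control tumours, and over the 13 alternatives the value ran from 7.18 to 8.91, 7.14 to 8.84 and 6.75 to 8.47. The 2 promoters printed above start transcripts 12427 bases apart that share downstream exons. A count per gene therefore does not tell p16 from p19ARF transcripts.

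Cdkn2b and Cdkn2c rose less. Cdkn2b had 21.5, 11.7 and 19.7 CPM in ETV5 tumours, 12.5, 11.0 and 17.6 CPM in NPY tumours and 14.5, 14.5 and 24.6 CPM in control tumours, against 1.21, 1.17 and 0.84 CPM in cortex, or 22 cortex reads in all. Cdkn2b also passed the filter only through the tumours, and its folds over cortex are given as a description. They were 12.8 in ETV5 tumours (log2 3.68, SE 0.35), 10.3 in NPY tumours (log2 3.36, SE 0.31) and 13.1 in control tumours (log2 3.71, SE 0.31). Cdkn2c had 43.7, 47.4 and 60.6 CPM in ETV5 tumours, 47.8, 46.7 and 45.6 CPM in NPY tumours and 49.2, 41.4 and 40.5 CPM in control tumours, against 4.70, 5.37 and 4.18 CPM in cortex. The tumour values of Cdkn2c were close together, with a within-group SD of 0.17 on the log2 scale, at the 13.9th percentile of genes. Cdkn2c rose 9.12-fold in ETV5 tumours (log2 3.19, SE 0.23, limma adjusted p = 8.74e-05), 8.64-fold in NPY tumours (log2 3.11, SE 0.18, adjusted p = 6.02e-06) and by a log2 of 2.57 to 3.43 in control tumours (95% interval, SE 0.19, adjusted p = 2.80e-06).

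Cdkn2d, the INK4 gene outside the 10, was not called in any tumour group. It stood at 40.9 to 71.6 CPM in ETV5 tumours, 42.0 to 82.3 in NPY tumours, 38.9 to 54.6 in control tumours and 46.3 to 55.3 in cortex. Its log2 difference from cortex was -0.11 in ETV5 tumours, -0.07 in NPY tumours and -0.39 in control tumours (limma adjusted p = 0.704, 0.819 and 0.0599). Per kilobase of exon, Cdkn2a made up 58.7 to 77.2% of the 4 INK4 genes in ETV5 tumours, 51.5 to 71.9% in NPY tumours, 55.0 to 67.6% in control tumours and 0.356 to 1.57% in cortex. Cdkn2d made up 10.3 to 22.9%, 14.04 to 32.7% and 15.96 to 24.6% in the ETV5, NPY and control tumours, and 91.5 to 92.7% in cortex. Cdkn2a thus held the largest share in all 9 tumour libraries and Cdkn2d in all 3 cortex libraries. The Cdkn2a count does not tell p16 from p19ARF transcripts, so its share is not that of p16 alone. Of the other INK4 genes, Cdkn2c stayed at or below 12.98% and Cdkn2b at or below 11.7% in every library. Cdkn2a and Cdkn2b are homologous, but their GENCODE transcripts share no identical run longer than 23 bases.

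**Figure D3:**
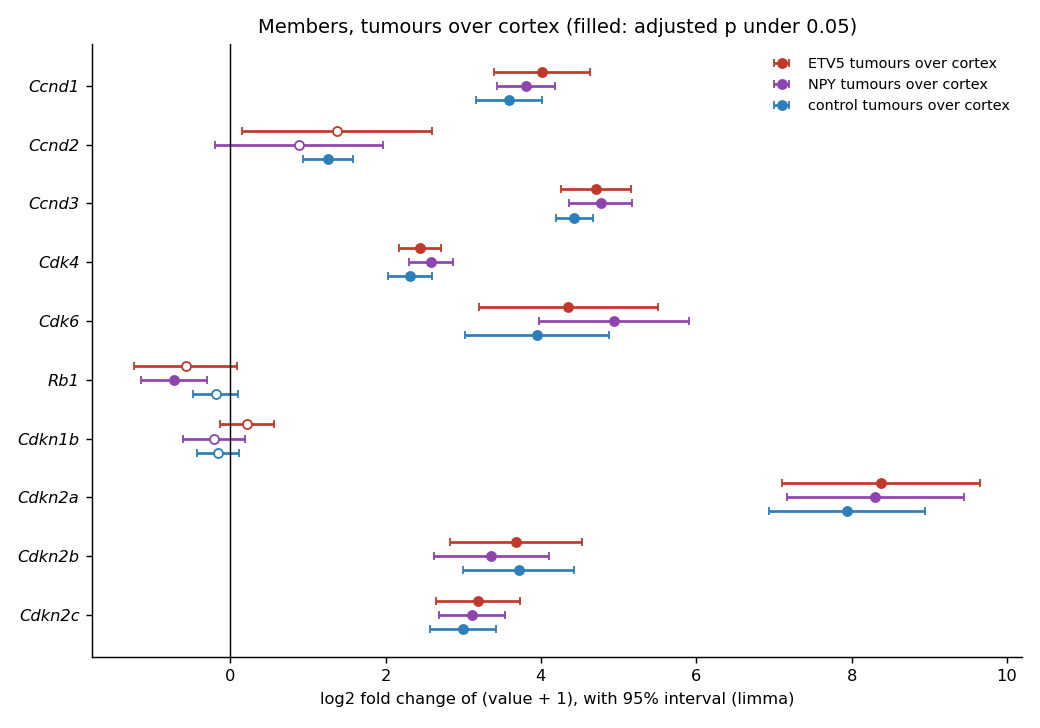
Log2 fold change over cortex (x axis; value plus 1) of each gene in ETV5, NPY and control tumours, with 95% intervals from limma; filled points passed an adjusted p of 0.05. Cdkn2a stands at 7.94 to 8.38, while Rb1 and Cdkn1b lie between -0.72 and 0.22. Cdk6, Cdkn2a and Cdkn2b passed the filter only through the tumours and had to differ.

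Both genes that flank the Cdkn2a and Cdkn2b pair on chromosome 4 also rose. Of all genes tested, 31.8% were called higher in ETV5 tumours, 35.1% in NPY tumours and 35.7% in control tumours. Cdkn2a spans 89274471 to 89294653 and Cdkn2b 89306299 to 89311039, both on the minus strand; Mtap lies at 89137122 to 89181081 and Dmrta1 at 89679436 to 89694772, both on the plus strand. Mtap, an enzyme of methionine salvage that is often lost together with CDKN2A in human cancers, had 86.7, 75.5 and 90.8 CPM in ETV5 tumours, 123, 105 and 96.5 CPM in NPY tumours and 73.2, 77.4 and 91.0 CPM in control tumours, against 8.46, 9.73 and 10.6 CPM in cortex. Mtap rose 7.67-fold in ETV5 tumours, 9.94-fold in NPY tumours and 7.36-fold in control tumours (limma adjusted p = 5.55e-05, 2.89e-06 and 1.35e-06). Dmrta1, a DM-domain transcription factor, had 77.9, 15.1 and 22.1 CPM in ETV5 tumours, 50.3, 10.5 and 31.7 CPM in NPY tumours and 18.8, 14.9 and 32.9 CPM in control tumours, against 2.15, 1.51 and 1.95 CPM in cortex. It rose 13.3-fold, 11.7-fold and 9.50-fold in the same order of groups (limma adjusted p = 0.00176, 7.24e-04 and 2.69e-05). No library of the 9 tumours had a Cdkn2a, Cdkn2b, Mtap or Dmrta1 level within the cortex range. All tumour libraries lay above cortex for 35.7% of 15228 genes, and Cdkn2a and Cdkn2b passed the filter only through the tumours.

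**Figure D4:**
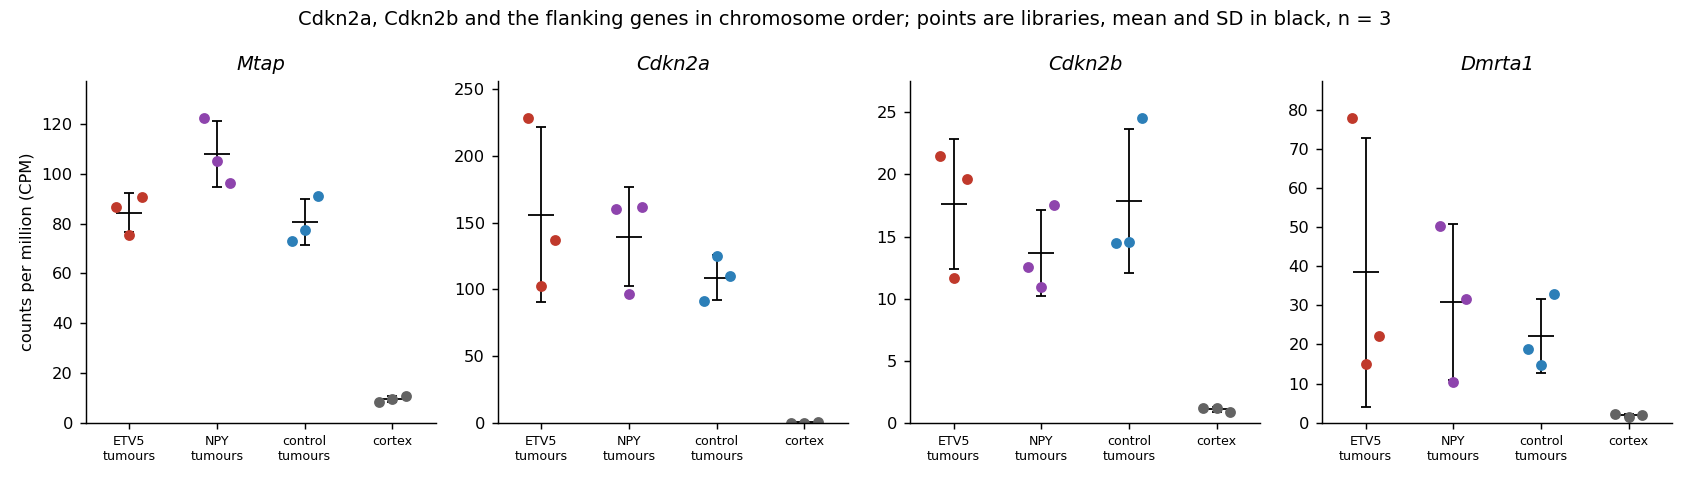
CPM (y axes) of Mtap, Cdkn2a, Cdkn2b and Dmrta1, in their order along chromosome 4. The groups are ETV5 tumours, NPY tumours, control tumours and cortex, and points are libraries. Every tumour point lies above every cortex point in all 4 panels, by the widest gap for Cdkn2a, whose cortex points stand for 1, 1 and 5 reads.

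Ranked per kilobase of exon, Ccnd1 came first in all 3 tumour groups (188 ± 70.3 in ETV5 tumours, 156 ± 27.4 in NPY tumours and 136 ± 31.2 in control tumours, SD, n = 3 each), but its range met that of the gene ranked next: Cdkn2a in ETV5 and NPY tumours and Cdk4 in control tumours. In cortex Cdk4 came first (16.5 ± 1.17), clear of Cdkn1b, and Cdkn1b, Ccnd2, Rb1 and Ccnd1 followed with ranges that overlapped between neighbours. From Ccnd1 downward, each cortex gene was clear of the next: Ccnd3, Cdkn2c, Cdkn2b, Cdkn2a and Cdk6. The order of Cdkn2b, Cdkn2a and Cdk6 rests on 22, 7 and 12 cortex reads in all. There the lowest Cdkn2b library stood at 0.601 and the highest Cdkn2a library at 0.594. In control tumours Cdkn2a was clear of Ccnd3, Ccnd3 of Ccnd2, Ccnd2 of Cdkn2c and Rb1 of Cdk6, while Cdkn2c, Cdkn2b, Cdkn1b and Rb1 overlapped between neighbours. In ETV5 tumours 3 of 9 neighbouring pairs did not overlap (Cdk4 over Ccnd3, Cdkn2c over Cdkn1b, Rb1 over Cdk6), and in NPY tumours 5 did.

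Around these 10 genes, 27 other genes of the G1 pathway were examined. Against cortex 15 rose and 2 fell in ETV5 tumours, and 19 rose and 3 fell in NPY tumours. In control tumours 15 rose and 2 fell. Of all genes, 31.8%, 35.1% and 35.7% were called higher and 32.0%, 35.8% and 36.2% lower in ETV5, NPY and control tumours. The median log2 fold change of the 27 genes was 0.89, 1.18 and 0.74 in the same order, against 0.01, -0.01 and 0.00 over all genes. E2f7 and E2f8 passed the filter only through the tumours, with 17 and 30 cortex reads in all. Of the other 25 genes 13, 17 and 13 rose. The medians of the 27 genes include E2f7 and E2f8 and are given as a description. Of the 10 genes of E2F factors and their DP partners, 8 were called higher in ETV5 tumours, 9 in NPY tumours and 8 in control tumours, or 6, 7 and 6 of the 8 without E2f7 and E2f8. Those 2 genes, repressive members of the E2F family, differed by a log2 of 2.94 and 3.28 in control tumours, values given as a description. In control tumours Rbl1, the retinoblastoma relative p107, rose by 3.34 (limma adjusted p = 4.12e-06). Cks1b and Skp2, which direct p27 to degradation, rose by 3.97 and 2.07 (adjusted p = 1.82e-06 and 1.62e-05). Cdk2, the cyclin E kinase, and its activating phosphatase Cdc25a rose by 2.80 and 2.08 (adjusted p = 2.65e-06 and 8.43e-06), and Myc rose by 1.71 (adjusted p = 1.13e-04). Ccnh, the cyclin of the CDK-activating kinase, fell by 0.85 and Mycl, a MYC relative, fell by 1.84 (adjusted p = 0.00125 and 1.73e-04). All 10 genes of a proliferation list were called higher in each tumour group, but only 5, 6 and 5 of them passed the filter in cortex in the ETV5, NPY and control contrasts, and the others had to differ. The list had sums of 879 to 1096 CPM in ETV5 tumours, 1175 to 1524 in NPY tumours, 622 to 910.3 in control tumours and 22.1 to 26.3 in cortex.

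Adding ETV5 to the fusion was not seen to change any of the 10 genes. None passed the test against control tumours, where 0% of 14382 genes were called (lowest limma adjusted p = 0.732; 944 genes, 6.56%, had an unadjusted p under 0.05, and edgeR called 0 genes and DESeq2 76, none of the 10). The median log2 difference of the 10 was 0.23, against -0.02 over all genes. Cdkn1b was the one gene whose ETV5 libraries all lay above the control libraries, at 53.3 to 72.6 against 46.5 to 52.7 CPM, a log2 difference of 0.37 (95% interval -0.01 to 0.76, limma adjusted p = 0.732); 7.10% of all genes had an ETV5 range above the control range. The 95% intervals of the others ran from -0.30 to 1.14 for Ccnd1, -1.13 to 1.35 for Ccnd2, -0.20 to 0.75 for Ccnd3, -0.23 to 0.49 for Cdk4, -0.43 to 1.25 for Cdk6 and -1.06 to 0.29 for Rb1. For the INK4 members they ran from -0.29 to 1.17 (Cdkn2a), -0.82 to 0.75 (Cdkn2b) and -0.28 to 0.66 (Cdkn2c). The data therefore leave room for a change in Ccnd2 of more than 2-fold in either direction. They also leave room for a rise of that size in Ccnd1, Cdk6 and Cdkn2a, and for such a fall in Rb1. The intervals of Ccnd3, Cdk4, Cdkn1b, Cdkn2b and Cdkn2c hold no change that large. Library codes in the labels have one prefix for cortex, control tumours and ETV5 replicates 1 and 2, and another for ETV5 replicate 3 and all NPY tumours. Without ETV5 replicate 3 none of the 10 genes passed.

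In NPY tumours, too, none of the 10 genes passed against control tumours, where 727 of 14425 genes (5.04%) were called, 0.728% higher and 4.31% lower. That count was 138, 1 or 78 without control replicate 1, 2 or 3 and 125 without NPY replicate 1. Cdk6 came nearest: 25.0, 25.4 and 17.8 CPM in NPY tumours all lay above 13.6, 11.3 and 9.57 CPM in control tumours. The log2 difference was 1.06 (SE 0.24, 95% interval 0.49 to 1.63, limma adjusted p = 0.0565), and DESeq2 on the recovered reads called it (1.05, adjusted p = 0.00410), with a range over the 13 alternatives of 0.00410 to 0.185. Ccnd3 also lay above control in all NPY libraries, by 0.41 (95% interval 0.00 to 0.83, limma adjusted p = 0.211), and Rb1 lay below, by -0.46 (95% interval -0.91 to -0.02, limma adjusted p = 0.201); 29.6% of genes had ranges that did not overlap, 11.1% higher and 18.4% lower. For the rest the log2 difference was 0.30 for Ccnd1, -0.30 for Ccnd2, 0.35 for Cdk4, 0.02 for Cdkn1b, 0.42 for Cdkn2a, -0.28 for Cdkn2b and 0.19 for Cdkn2c, with limma adjusted p-values between 0.230 and 0.952. The median over the 10 was 0.24, against 0.04 over all genes.

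Of the 27 pathway genes 1 rose in NPY tumours over control tumours, Ccne2, the second E-type cyclin, beside 0.728% of all genes. It had 11.1, 11.2 and 10.4 CPM in NPY tumours against 4.98, 3.19 and 3.35 CPM in control tumours, a log2 difference of 1.58 (SE 0.27, limma adjusted p = 0.0289). The call was lost without any 1 of the 6 libraries, with limma adjusted p between 0.0550 and 0.111 and a log2 difference between 1.49 and 1.78, and the range over the 13 alternatives was 9.56e-05 to 0.111. Of the proliferation list 2 of 10 genes rose, and its sum was 1175 to 1524 CPM in NPY tumours and 622 to 910.3 in control tumours. Neuronal material differed between the same groups: 7 of 10 excitatory neuron markers and 4 of the 5 interneuron markers tested fell, Neurod6 had 0 reads in NPY tumours, and the sums of the 10 excitatory markers were 78 to 94.4 CPM in NPY tumours and 418 to 846 in control tumours. The part of neuronal material in the NPY differences was not tested. The library prefix and the NPY group cannot be told apart.

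**Figure D5:**
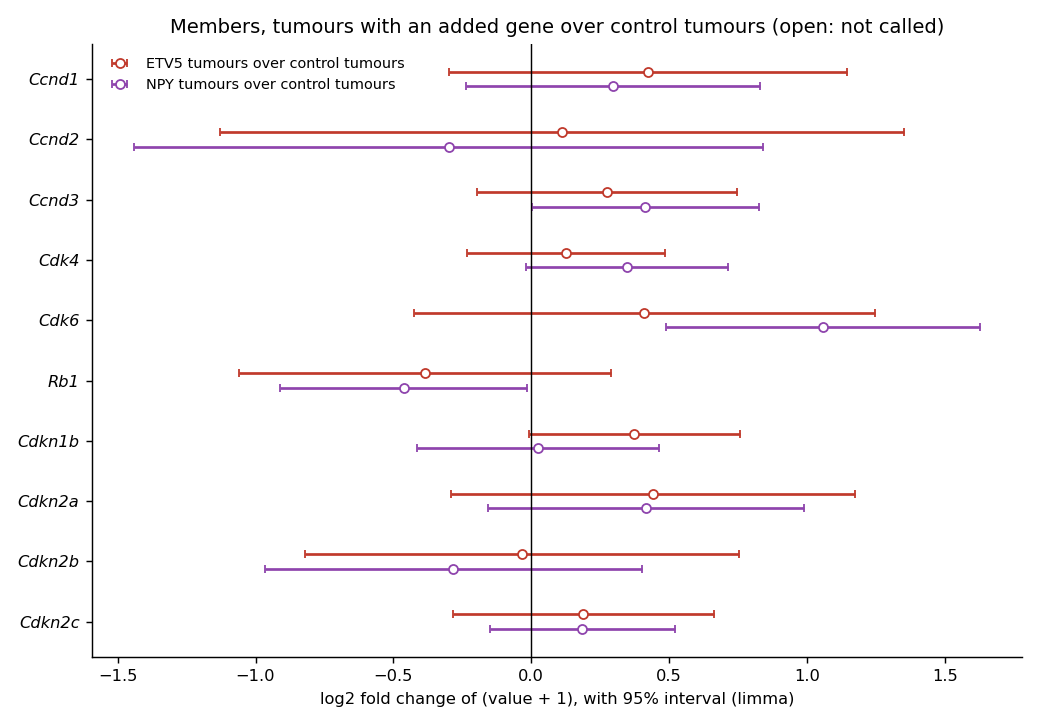
Log2 fold change over control tumours (x axis; value plus 1) of each gene in ETV5 and NPY tumours, with 95% intervals from limma. All points are open (adjusted p above 0.05); the interval of Cdk6 in NPY tumours runs from 0.49 to 1.63.

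Set against each other, ETV5 and NPY tumours overlapped in all 10 genes, beside 12.5% of genes whose ranges did not. None passed, and 0% of 14023 genes were called (lowest limma adjusted p = 0.0832; 802 genes, 5.72%, had an unadjusted p under 0.05, edgeR called 0 genes and DESeq2 56). The largest log2 differences, ETV5 minus NPY, were -0.61 for Cdk6 (95% interval -1.46 to 0.24, limma adjusted p = 0.828), 0.45 for Ccnd2 (-1.20 to 2.10, adjusted p = 0.921) and 0.39 for Cdkn1b (-0.10 to 0.88, adjusted p = 0.820).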

How the data were processed

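The authors deposited 2 tables of 24421 genes, one with cortex, control and ETV5 libraries and one with control and NPY libraries, as a normalized signal, each library's read counts scaled by 1 size factor. Whole reads were recovered for 100% of values within a tolerance of 0.01, and the control libraries held identical reads in both tables. Per the labels' protocols, 300 ng of total RNA per library went into stranded mRNA libraries read as paired ends. Per the submitters' processing notes the build was mm10 and the tools were STAR 2.5.0a, DESeq2 1.30.1, FastQC 0.11.7 and MultiQC 1.6. Counting tool, annotation and strand setting: not given in the sources used here. Date-like gene names (27) and repeated names (2) touched no gene named here.

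Levels are CPM of the recovered totals; levels of different genes were compared only per kilobase of GENCODE M21 exon union. The main test was limma 3.58.1 (trend, robust, two-sided, R 4.3.3) on log2(deposited value + 1), group as the sole term, over genes that passed the edgeR filter (10 reads, 15 in total), Benjamini-Hochberg adjusted over all genes tested and called under 0.05. A fold change on that scale understates the change of genes at low values. NPY tumours were set against cortex and ETV5 tumours on reads rescaled by median of ratios over all 12 libraries. Alternatives were TMM, total-read scaling, edgeR 4.0.16 quasi-likelihood and DESeq2 1.42.0 on the recovered reads, a pseudocount of 5, no filter, a replicate block and each library left out, 13 per comparison. The fits were tested on simulated data.

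The 10 genes and all lists were chosen with earlier results of these data known. The text names all 10 members, per comparison and role at most 2 called pathway genes in each direction, both neighbours of Cdkn2a, the genes that check the labels and at most 2 defining markers per list besides those at 0 reads.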

Additional observations from a re-analysis of the deposited data

How the results depend on the processing

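Of 780 values of the 10 genes under an alternative, 746 kept their direction and their side of the threshold, 10 became called, none lost a call and 24 changed sign, none of which was called under either setting. The counts of the 10 genes called stayed within 1.5 times in each comparison except NPY over control tumours, where DESeq2 called 1 (Cdk6). Over all genes, DESeq2 called 76 for ETV5 over control tumours, 56 for ETV5 over NPY tumours and 1833 for NPY over control tumours (33.1% of them higher, against 14.4% by limma). Without the filter 1 gene was called for ETV5 over NPY tumours. With 1 library left out, 0 to 1 genes were called for ETV5 over NPY tumours and 1 to 571 for NPY over control tumours, the lowest without control replicate 2. The cause was not tested.

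Groups share replicate numbers. Same-numbered libraries correlated at -0.41 to 0.37 after group means were removed, and others at -0.54 to 0.51. With means of only 3 libraries removed, this check cannot decide whether the numbers pair the libraries. A replicate block moved the NPY over control count to 264 genes, again with none of the 10.

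None of the values that changed sign was called. The largest was a log2 of -0.52 for Ccnd2 in ETV5 over control tumours, without ETV5 replicate 2. Cdkn1b was 0.0141 in control tumours over cortex with total-read scaling; in NPY over control tumours it was -0.0147 with TMM, -0.0595 with total-read scaling and -0.0888 to 0.20 with 1 library left out. Cdkn2b in ETV5 over control tumours was 8.78e-05 with TMM, 0.0229 with edgeR, 0.00667 with DESeq2 and -0.18 to 0.24 with 1 library left out. Ccnd2 ran from -0.52 to 0.49 in ETV5 over control, -0.73 to 0.26 in NPY over control and -0.17 to 0.90 in ETV5 over NPY tumours. In ETV5 over NPY tumours Ccnd1 ran from -0.11 to 0.30, Ccnd3 from -0.28 to 0.0714, Rb1 from -0.0827 to 0.41, Cdkn2a from -0.24 to 0.34 and Cdkn2c from -0.12 to 0.15. Depth limits the cortex levels of Cdk6, Cdkn2a and Cdkn2b, at 12, 7 and 22 reads in all.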

Other observations

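Cdkn1c, the gene of the inhibitor p57 and a member of the pathway list, varied more between tumour libraries than any of the 10 genes. It had 178, 845 and 4.34 CPM in ETV5 tumours, 413, 11.3 and 119.9 CPM in NPY tumours and 69.7, 531 and 634 CPM in control tumours, against 8.19, 7.04 and 9.88 CPM in cortex. The lowest tumour library thus lay below cortex and the highest stood at 195 times that lowest one, and the order of the libraries did not follow the groups. Cdkn1c rose in control tumours over cortex (log2 4.92, SE 0.72, limma adjusted p = 3.19e-04) and in NPY tumours over cortex (3.14, SE 1.13, adjusted p = 0.0395), whereas ETV5 tumours over cortex gave 3.20 (SE 1.75, adjusted p = 0.151). Cdkn1a, the p21 gene, did not pass in any of the 3 comparisons with cortex (log2 0.53 to 0.67, limma adjusted p 0.0827 to 0.240).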
